A study of Mus musculus with 4 samples.

Results

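ATP-binding cassette (ABC) transporter genes were examined in injured mouse kidneys. All protein-coding genes whose symbol begins with Abca to Abcg followed by a digit were taken, with the exception of Abca1 and Abcg1, and they were grouped by the subfamily letter. This gave 48 genes among 22058 protein-coding genes and 54078 features in all. The ABCA subfamily had 15 genes, ABCB 10, ABCC 10, ABCD 4, ABCE 1, ABCF 3 and ABCG 5.

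RNA-sequencing was performed on 4 libraries of kidney RNA, taken from adult male mice at day 3 after both renal pedicles had been clamped for 30 min (bI/R 3D), and each library was a pool of 3 mice. The 2 WT pools came from littermates with floxed Apela alleles and no Cre, and the 2 Apela Ksp KO pools came from mice with the same floxed alleles and a Cre driven by the Ksp-cadherin promoter, which is active in renal tubular epithelium. Both groups therefore carried the floxed alleles and both were injured, and no sham-operated library was among them. The strain label was C57BL/6 x 129S4/SvJae, while the methods of the study name a C57BL/6 background. The series text names adipose tissue as the source. The title and the sample labels name kidney, and the tubular markers Slc34a1 (365 to 898 FPKM), Umod (788 to 1133 FPKM) and Aqp2 (159 to 289 FPKM) were high in every pool, while the fat marker Adipoq was at 0 in 3 pools and at 0.268 in KO pool 2. Another adipocyte marker, Cidec, was at 1.37 and 0.282 in WT and at 7.92 and 2.79 in KO. FPKM are fragments scaled to the length of the gene and to a size factor of the library, so levels can be compared between genes per length. The targeted gene, Apela, was at 5.27 and 4.57 FPKM in WT and at 0.536 and 0.245 in KO. Depth was even, with 16045724 to 16927742 reads on genes in each library.

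ABC transporters use ATP bound at a conserved nucleotide-binding cassette to move substrates across membranes. ABCA proteins handle mainly lipids, ABCB proteins include the drug pump P-glycoprotein and several mitochondrial carriers, and ABCC proteins export organic anions and conjugates or, as sulphonylurea receptors, regulate potassium channels. ABCD proteins serve peroxisomes and lysosomes, ABCE and ABCF proteins lack membrane domains and act on ribosomes, and ABCG proteins export sterols, urate and drugs. In the proximal tubule of the kidney, ABCC2, ABCC4 and ABCG2 stand in the apical membrane and secrete anions, conjugates and urate into the tubular fluid.

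The RNA of the 48 genes was concentrated in few of them. Abcc2, Abcd3, Abca3 and Abcg2 together held 58.0% and 48.6% of the summed ABC FPKM in WT, and 57.6% and 68.9% in KO. In all, 31 genes had a mean of at least 0.5 FPKM over the 4 pools and were tested, and 17 were below it. The order of the 31 levels was loose, since only 4 of the 30 neighbouring pairs had ranges of the 4 pools that did not overlap. Among these were Abcg2 over Abcf1, Abcf2 over Abce1, and Abcc9 over Abca8b. The first of these gaps set the 4 leading genes apart from the rest, while neighbours within those 4 overlapped in their pool ranges.

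**Figure D1:**
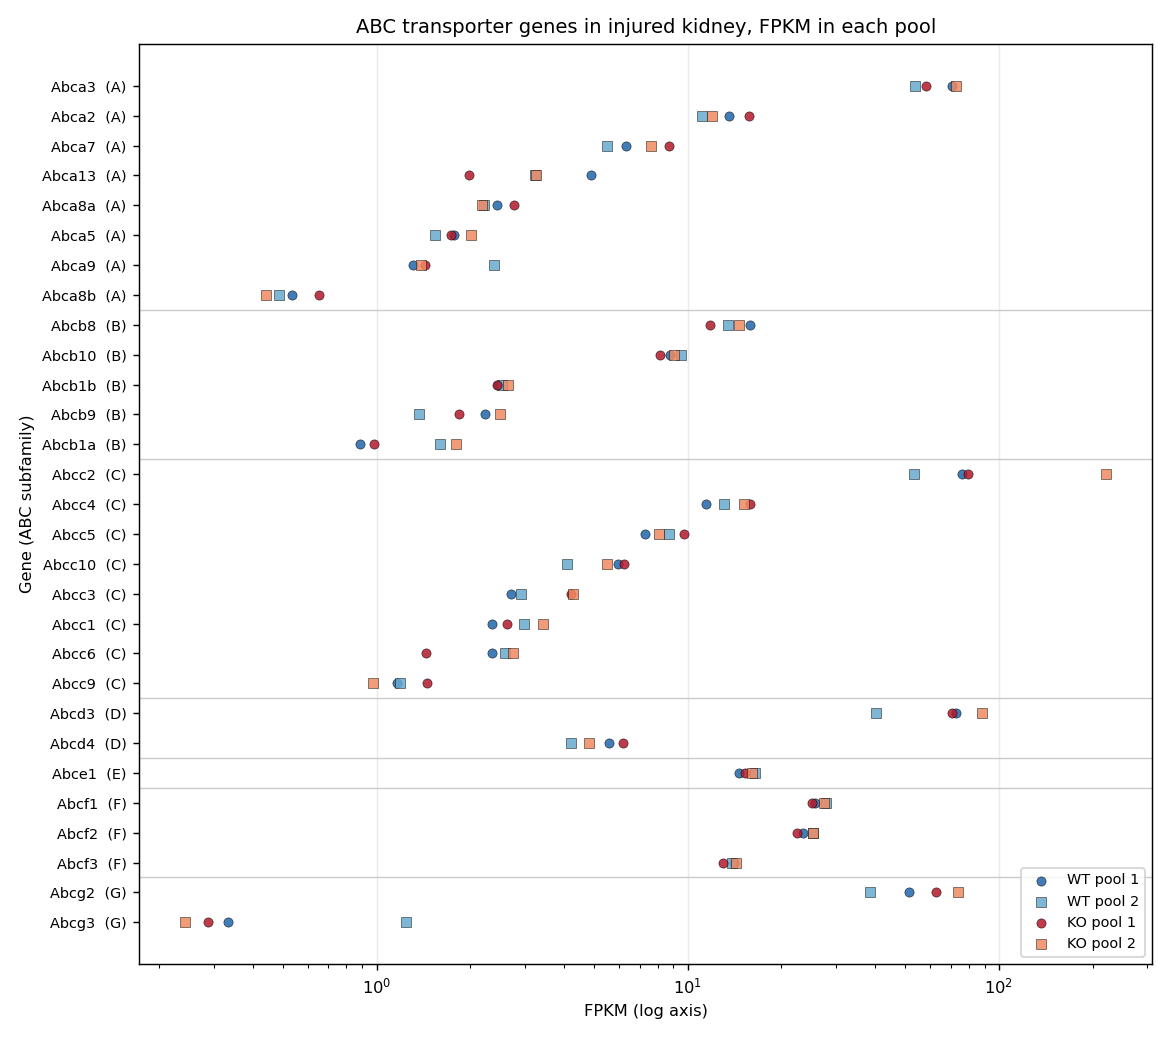
FPKM of 29 tested ABC genes in each of the 4 pools (x axis, log scale), with the genes grouped by subfamily and ordered by mean level on the y axis. Each symbol is 1 pool of 3 mice, and the 4 points of Abcc2 run from 53.5 to 222 FPKM while those of the ABCE and ABCF genes lie nearly on top of each other.

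The comparison of injured Apela Ksp KO with injured WT kidneys asked which genes differ when the tubules lack Apela. No ABC gene passed an adjusted p under 0.05 (limma on log2(FPKM + 0.5), Benjamini-Hochberg adjustment over 15414 genes), and neither did any other gene, so percent called was 0% for the members and for all genes tested. With voom weights on the reads recovered from the FPKM the count was also 0. Apela itself, the deleted gene, had a log2 fold change of -2.62 and an adjusted p of 0.466 in limma. A count of 0 therefore does not show that no gene differed. At an unadjusted p under 0.05, 974 of all tested genes and 4 ABC genes stood out. The 4 were Abcc3, Abca7, Abcg2 and Abcc4, all higher in KO, which is 12.9% of the 31 tested members against 3.29% of all tested genes in that direction. No member was lower at that threshold, against 3.03% of all tested genes. Both KO pools lay above both WT pools for 5 members (16.1%, against 19.7% of all tested genes), namely the same 4 and Abcc2. Both KO pools lay below both WT pools for 1 tested member, Abcg3 (3.23%, against 18.1% of all tested genes). The share of members with separate groups was thus near or below the background, and only the count at an unadjusted p in the higher direction exceeded it. The count of members was smaller with the replicate number as a block, at 2 (Abca7 and Abcc3, both higher in KO) in place of 4. In that fit 932 of the 15414 genes stood out in either direction. These genes were not split by direction, so the excess in the higher direction was not measured there.

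The log2 fold change was above 0 for 21 tested members and below 0 for 10. The median over the 31 was 0.07, against 0.01 over all tested genes, and 67.7% of the members were above 0 against 51.4% of all tested genes. That median was lower with any pool left out, from -0.00042 without KO pool 2 to 0.053 without KO pool 1. When each pool was left out in turn, the sign was kept in 11 members (8 higher and 3 lower) and turned in 20. In bulk kidney RNA, fewer cells of a type and less RNA per cell cannot be told apart, and this applies to every value given here. With 2 pools a group, the smallest two-sided p of an exact permutation test is 0.33, so no gene was tested singly in that way.

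**Figure D2:**
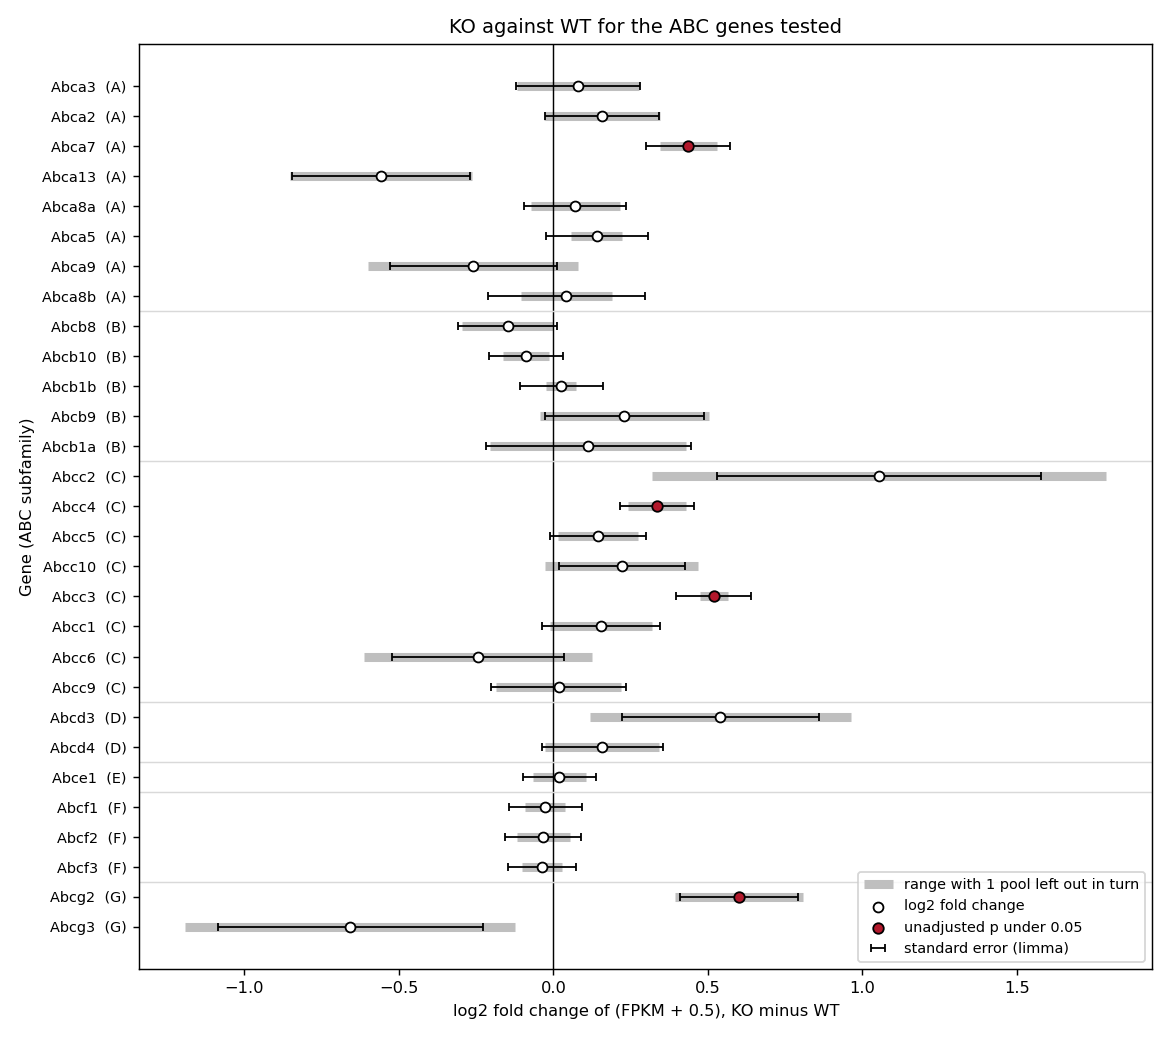
Log2 fold change of FPKM + 0.5, KO minus WT (x axis), for 29 tested ABC genes by subfamily (y axis). Circles are the limma estimates with standard errors, grey bars span the estimates with 1 pool left out in turn, and filled circles mark the 4 genes with an unadjusted p under 0.05, Abca7, Abcc4, Abcc3 and Abcg2.

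Among the exporters of organic anions, Abcc2 was the highest ABC gene by the mean of the 4 pools and the most uneven one at high level. It encodes the apical exporter of glutathione and glucuronide conjugates (MRP2), and the table places it on chr19:43782192-43840740, plus strand of GRCm38, with a longest coding transcript of 32 exons. WT pools 1 and 2 had 75.9 and 53.5 FPKM, and KO pools 1 and 2 had 79.7 and 222. KO pool 1 was thus close to WT pool 1, and KO pool 2 stood far above the other 3 pools. The KO to WT ratio of the means was 2.33, with means of 64.7 ± 15.8 (SD) in WT and 151 ± 100 (SD) in KO. The log2 fold change was 1.05 with a standard error of 0.53 and an adjusted p of 0.797 in limma. It was 0.32 without KO pool 2 and 1.79 without KO pool 1. Between the KO pools Abcc2 differed 2.78-fold, and 80 of 13403 genes averaging 1 FPKM or more (0.597%) had a larger ratio of KO pool 2 to KO pool 1.

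Abcg2, the apical exporter of urate and many drugs, was the most abundant ABC gene whose groups were both separate and below an unadjusted p of 0.05. It lies on chr6:58584523-58695676, plus strand, with 16 exons in its longest coding transcript. The WT pools had 51.5 and 38.6 FPKM and the KO pools 62.6 and 73.6. The groups were separate, with a ratio of the means of 1.51. In limma the log2 fold change was 0.60 with a standard error of 0.19 and an adjusted p of 0.785. The fold change ranged from 0.39 to 0.81 with a pool left out. Its unadjusted p in limma was 0.054 with the replicate block and 0.070 without the filter, both over 0.05.

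Abcc4 (MRP4), an apical exporter of organic anions, urate and cyclic nucleotides, lies on the minus strand at chr14:118482692-118706219. It had 11.4 and 13.0 FPKM in WT, against 15.9 and 15.2 in KO. The groups did not overlap, and the ratio of the means was 1.27. Its log2 fold change of 0.34 had a standard error of 0.12 and an adjusted p of 0.785 in limma. Abcc3 (MRP3), a basolateral exporter of glucuronides on the minus strand at chr11:94343295-94392997, had a far lower level, 2.71 and 2.92 FPKM in WT and 4.22 and 4.27 in KO. Its pools were close within each group, on 248 to 402 reads per pool. The log2 fold change was 0.52 with a standard error of 0.12, an unadjusted p of 0.00959, the lowest of the 31 members, and an adjusted p of 0.722 in limma. With a pool left out it ranged from 0.47 to 0.56.

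The other ABCC genes showed no separation of the groups. Abcc5, an exporter of cyclic nucleotides, had 7.30 and 8.70 FPKM in WT and 9.73 and 8.06 in KO. Abcc10 (MRP7) had 5.96 and 4.09 in WT and 6.23 and 5.49 in KO. Abcc1 (MRP1), the widespread exporter of glutathione conjugates and leukotriene C4, had 2.35 and 2.97 in WT and 2.62 and 3.43 in KO. Each of these 3 had overlapping groups, and their log2 fold changes were 0.14, 0.22 and 0.15. The value for Abcc5 ran from 0.016 to 0.27 with a pool left out. Abcc6, whose loss in humans causes pseudoxanthoma elasticum, had 2.35 and 2.59 FPKM in WT and 1.44 and 2.73 in KO, so the KO pools lay on either side of the WT pools. Abcc9, the sulphonylurea receptor SUR2 of vascular and muscle potassium channels, had 1.16 and 1.19 in WT and 1.45 and 0.971 in KO. Its channel partner Kcnj8 was at 1.85 to 2.34 FPKM in the 4 pools with overlapping groups. Of the 8 tested ABCC genes, 7 had a log2 fold change above 0 and 1 below, with a median of 0.19.

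The sequences upstream of 5 of these genes are shown because they differ in base composition, with the 4 tested genes that were higher in both KO pools and have a RefSeq promoter entry, and Abcf1 as a gene with nearly equal pools. They are from the RefSeq promoter table of GRCm38.p6, on the gene's own strand, and cover the bases before the annotated start that lie outside the gene of the FPKM table, chr19:43782058-43782191 for Abcc2, chr14:118706220-118706469 (minus) for Abcc4, chr6:58584283-58584522 for Abcg2, chr10:79996244-79996493 for Abca7 and chr17:35969762-35970000 (minus) for Abcf1. Capitals mark the reverse complement of TGACNNNGC, the core of the antioxidant response element bound by NRF2.
Abcc2: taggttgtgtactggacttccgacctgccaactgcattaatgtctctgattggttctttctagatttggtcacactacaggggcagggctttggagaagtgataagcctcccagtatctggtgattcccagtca
Abcc4: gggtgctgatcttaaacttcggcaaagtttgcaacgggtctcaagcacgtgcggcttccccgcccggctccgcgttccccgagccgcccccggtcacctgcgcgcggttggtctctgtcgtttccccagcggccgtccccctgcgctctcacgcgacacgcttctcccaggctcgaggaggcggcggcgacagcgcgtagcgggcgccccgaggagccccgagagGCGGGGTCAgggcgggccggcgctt
Abcg2: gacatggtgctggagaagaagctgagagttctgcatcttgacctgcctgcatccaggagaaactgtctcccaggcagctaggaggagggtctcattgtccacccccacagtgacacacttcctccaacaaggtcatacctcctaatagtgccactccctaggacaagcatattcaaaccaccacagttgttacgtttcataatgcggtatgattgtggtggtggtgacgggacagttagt
Abca7: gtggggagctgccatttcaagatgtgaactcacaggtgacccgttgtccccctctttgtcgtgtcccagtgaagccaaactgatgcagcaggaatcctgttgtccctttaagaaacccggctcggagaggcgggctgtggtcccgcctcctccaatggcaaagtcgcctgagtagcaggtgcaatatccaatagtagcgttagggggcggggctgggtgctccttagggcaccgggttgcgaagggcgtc
Abcf1: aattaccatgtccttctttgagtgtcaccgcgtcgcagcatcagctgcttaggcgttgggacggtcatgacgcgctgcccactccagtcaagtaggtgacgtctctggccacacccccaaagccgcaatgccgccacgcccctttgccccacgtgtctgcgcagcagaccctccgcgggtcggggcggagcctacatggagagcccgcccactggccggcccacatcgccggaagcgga

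Over the full 250 bases before the start, GC content was 45.6% with 1 CpG in Abcc2, 51.2% with 3 in Abcg2 and 58.8% with 12 in Abca7. It was 66% with 25 CpG in Abcf1 and 72% with 35 in Abcc4, so both Abcc4 and Abcf1 have CpG-dense starts and Abcc2 and Abcg2 do not. The medians were 56.8% GC and 12 CpG over 13758 protein-coding promoters, and 58% and 13 over the 35 ABC members with a usable entry. The TGACNNNGC core, searched on both strands, was found in 3 of the 35 member promoters and in 11.1% of all promoters. The 3 were those of Abcc2, Abcc4 and Abcc10. In Abcc4 it lay 25 to 17 bases before the start on the opposite strand, as capitalised above. In Abcc2 it lay 98 to 90 bases before the RefSeq start, within the first bases of the gene as the FPKM table draws it, at chr19:43782200-43782228 with its flanks.
Abcc2 core and flanks: ctcactgggaTGACATAGCattcatctag
The dioxin response core GCGTG was found in 12 of the 35 and in 36.9% of all promoters, TATAAA in 3 of the 35 and 10.4%, and CCAAT in 10 of the 35 and 36.6%, each on both strands. A match describes letters only and is not a binding site. Nfe2l2, which encodes NRF2, had 34.8 and 34.04 FPKM in WT and 40.2 and 48.1 in KO, with a log2 fold change of 0.35 and an adjusted p of 0.785 in limma.

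The remaining ABCG genes were low. Abcg3, a rodent gene closely related to Abcg2, was the 1 tested member with both KO pools below both WT pools. Its FPKM were 0.33 and 1.24 in WT, on 19 and 76 reads, and 0.286 and 0.243 in KO, on 17 and 14 reads. WT pool 2 alone stood apart, and WT pool 1 was close to both KO pools. The gene passed the filter only through WT pool 2, so its place in the count of separate groups supports nothing. In limma the log2 fold change was -0.66 with a standard error of 0.43 and an adjusted p of 0.815. It was -0.12 without WT pool 2 and -1.19 without WT pool 1. With pseudocounts of 0.1 and 1 it was -1.07 and -0.45, and with voom weights -1.28. The summed FPKM of 12 macrophage markers was also highest in WT pool 2, at 464 against 186 in WT pool 1, 229 in KO pool 1 and 221 in KO pool 2. Of the 11 macrophage markers tested, 8 were below 0 and 3 above. Cd163, the 1 with an unadjusted p under 0.05 in limma, was higher in KO. The part of these markers in the Abcg3 values was not tested. Abcg8 and Abcg5, the paired sterol exporters, and Abcg4 had at most 7 reads in any pool. Abcg5 and Abcg8 overlap by 6710 bases on opposite strands.

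**Figure D3:**
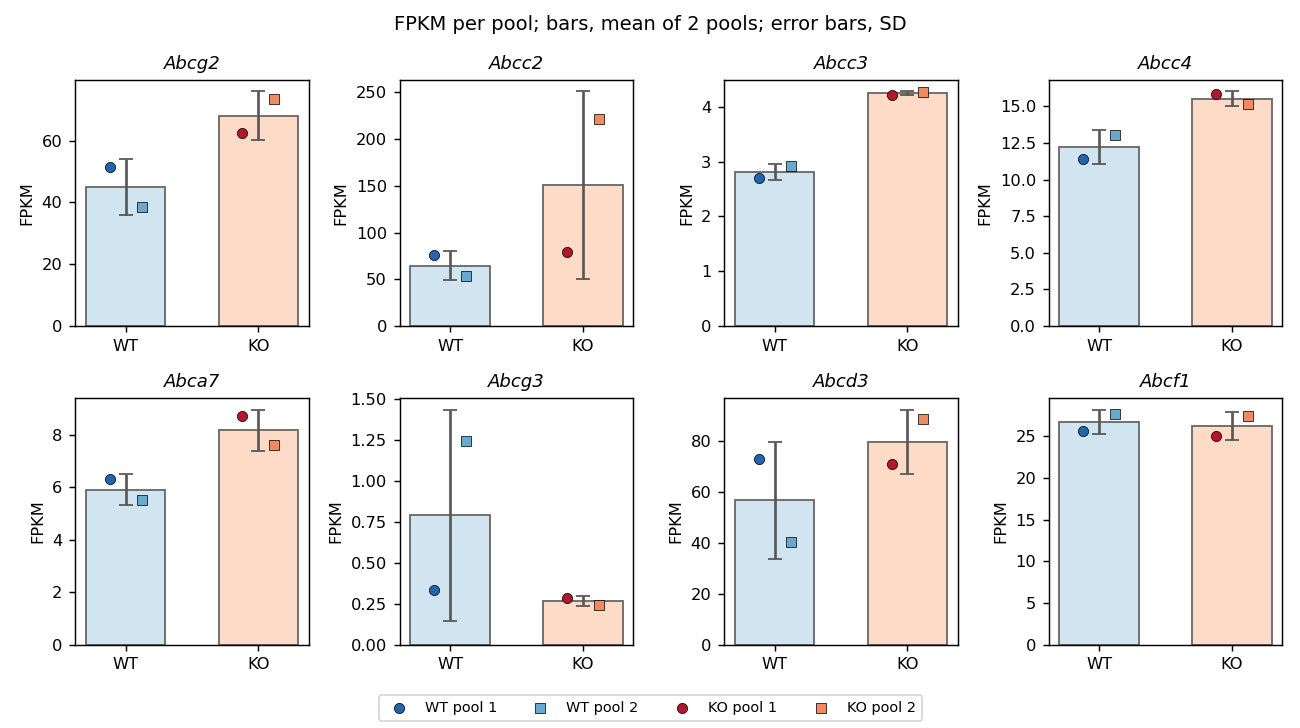
FPKM per pool (y axis, linear from 0) of 8 ABC genes in WT and KO. Points are single pools, bars are means of 2 pools and error bars are SDs. Abcg2, Abcc3, Abcc4 and Abca7 have both KO points above both WT points, Abcc2 is carried by KO pool 2 at 222, Abcg3 by WT pool 2 at 1.24, and the 4 pools of Abcf1 lie between 25.0 and 27.7.

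Peroxisomal Abcd3 was the second most abundant ABC gene by mean level. It encodes PMP70, which brings branched-chain fatty acids, dicarboxylic acids and bile acid intermediates into peroxisomes, organelles that are plentiful in the proximal tubule. The gene lies on the minus strand at chr3:121758774-121815302. It had 72.8 and 40.4 FPKM in WT and 70.7 and 88.5 in KO, and the groups overlapped because WT pool 1 was above KO pool 1. WT pool 2 was the low pool, and the WT pools differed 1.80-fold. Its log2 fold change was 0.54 with a standard error of 0.32 and an adjusted p of 0.798 in limma, and it was 0.12 without WT pool 2. Abcd4, which works in lysosomal vitamin B12 export, had 5.57 and 4.20 in WT and 6.18 and 4.83 in KO. Abcd2, a peroxisomal fatty acid carrier, had 15 and 17 reads in WT and 8 and 10 in KO and was not tested. Of 3 genes for the import of peroxisomal membrane proteins, Pex3, Pex16 and Pex19, all had a log2 fold change above 0, none with an unadjusted p under 0.05. Ppara, the receptor that controls many genes of peroxisomal fat oxidation, had 19.0 and 14.8 FPKM in WT and 31.9 and 29.1 in KO, a log2 fold change of 0.84 with an adjusted p of 0.65 in limma.

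The lipid transporters of the ABCA subfamily ranged from 72.6 FPKM down to no read. Abca3, which loads phospholipid into lamellar bodies in the lung, was the third most abundant ABC gene in this kidney RNA, on chr17:24351950-24410201, plus strand. It had 70.6 and 53.6 FPKM in WT and 58.3 and 72.6 in KO. The 2 groups covered nearly the same span, and the log2 fold change was 0.08 with a standard error of 0.20 and an adjusted p of 0.954 in limma. Abca2, an endolysosomal lipid transporter, had 13.5 and 11.1 in WT and 15.7 and 12.0 in KO, with a log2 fold change of 0.16, a standard error of 0.18 and an adjusted p of 0.888 in limma. Both groups overlapped.

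Abca7, a lipid transporter with a role in phagocytosis and a known risk gene for Alzheimer's disease, was the only tested ABCA gene with separate groups. It lies on chr10:79996494-80015572, plus strand, with 46 exons in its longest coding transcript. It had 6.32 and 5.50 FPKM in WT and 8.72 and 7.63 in KO, a ratio of the means of 1.38. The log2 fold change was 0.44 with a standard error of 0.14 and an adjusted p of 0.785 in limma, and between 0.34 and 0.53 with a pool left out. Nr1h3, the sterol-sensing receptor LXR alpha, was lower, with 16.4 and 16.0 in WT and 11.5 and 12.5 in KO, a log2 fold change of -0.42 and an adjusted p of 0.757 in limma. The known LXR targets Abca1 (8.30 and 11.8 in WT, 8.32 and 8.15 in KO) and Abcg1 (2.98 and 4.57 in WT, 2.43 and 2.39 in KO), which are not members, had log2 fold changes of -0.25 and -0.53.

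Abca13, the longest ABC gene product of the table with 5034 codons, had 4.91 and 3.23 FPKM in WT and 1.99 and 3.25 in KO. WT pool 2 and KO pool 2 were nearly equal, and the log2 fold change of -0.56 ranged from -0.85 to -0.26 with a pool left out. A cluster on the minus strand of chromosome 11, from 109932190 to 110337716, holds Abca8b, Abca8a, Abca9, Abca6 and Abca5 in that order. Abca8a had 2.43 and 2.21 in WT and 2.77 and 2.18 in KO. Abca5, a lysosomal member, had 1.77 and 1.54 in WT and 1.74 and 2.01 in KO. Abca9 had 1.31 and 2.39 in WT and 1.43 and 1.39 in KO, with WT pool 2 alone high, as in Abcg3. Abca8b had 0.536 and 0.486 in WT and 0.652 and 0.440 in KO, and Abca6 had 14 to 25 reads per pool and was under the filter. No tested gene of the cluster had separate groups. Abca8a and Abca8b shared 105 of their 50-base transcript windows, 1.89% and 1.43% of each.

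P-glycoprotein, the drug pump of the apical membrane, is encoded in mice by Abcb1a and Abcb1b, which lie with Abcb4 on the plus strand of chromosome 5 from 8660077 to 8959231. Abcb1b had 2.46 and 2.52 FPKM in WT and 2.45 and 2.65 in KO, the most even of all 31 genes, with a highest to lowest pool ratio of 1.084. Abcb1a had 0.886 and 1.60 in WT and 0.982 and 1.80 in KO. Its second pool was the higher one in both groups, so the spread lay within the groups. The pair shared 768 of their 50-base windows with each other, and 17.0% of the windows of Abcb1a and 18.3% of those of Abcb1b were found in another gene, so reads could have been split between them. Abcb4, the phosphatidylcholine transporter of bile, had 3 to 9 reads per pool, and Abcb11, the bile salt export pump, had 1 read in all.

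Among the mitochondrial ABCB carriers, Abcb8, a component of mitochondrial potassium channels, had 15.8 and 13.5 FPKM in WT and 11.8 and 14.6 in KO, with a log2 fold change of -0.15, a standard error of 0.16 and an adjusted p of 0.878 in limma. Abcb10, of the inner membrane of haem-making mitochondria, had 8.77 and 9.54 in WT and 8.12 and 9.05 in KO. Both had overlapping groups. Abcb6, a porphyrin carrier, had 29 to 45 reads per pool and was under the filter, and 66.8% of its windows are shared with the readthrough gene Gm29253. Abcb9, the lysosomal peptide carrier, had 2.23 and 1.37 in WT and 1.85 and 2.50 in KO. Of 10 genes for iron-sulphur clusters and haem, 8 had a log2 fold change above 0. One of them had an unadjusted p under 0.05, Glrx5, a carrier of nascent iron-sulphur clusters, with 34.8 and 26.9 in WT and 43.6 and 40.2 in KO (adjusted p of 0.785 in limma).

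The peptide transporters of antigen presentation, Tap1 and Tap2, are ABCB proteins under other symbols and are not among the 48. They had lower values in KO, which no tested ABCB member showed at an unadjusted p under 0.05. Tap1 had 6.42 and 8.49 FPKM in WT and 3.996 and 3.34 in KO, with a log2 fold change of -0.92 and an adjusted p of 0.657 in limma. Tap2 had 8.31 and 11.7 in WT and 5.93 and 4.50 in KO, with a log2 fold change of -0.87 and an adjusted p of 0.757 in limma. Among the 5 ABC genes kept apart from the 48 (Tap1, Tap2, Cftr, Abca1 and Abcg1) all 5 log2 fold changes were below 0. The summed FPKM of the macrophage markers was highest in WT pool 2, as were these 5 genes. Not every marker was, since Cd163 had 0.422 and 0.341 in WT and 0.865 and 1.14 in KO. Itgam was highest in KO pool 2, at 1.86. The part of macrophages in the values of these 5 genes was not tested.

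The ribosome-acting genes varied little. Abcf1, a partner of the initiation factor eIF2 on chr17:35956819-35969761, minus strand, had 25.7 and 27.7 FPKM in WT and 25.0 and 27.4 in KO, with a log2 fold change of -0.03, a standard error of 0.12 and an adjusted p of 0.976 in limma. Abcf2 had 23.5 and 25.3 in WT and 22.4 and 25.3 in KO, with a log2 fold change of -0.03, a standard error of 0.12 and an adjusted p of 0.97 in limma. Abcf3 had 14.1 and 13.9 in WT and 13.0 and 14.3 in KO. Abce1, which splits ribosomes for recycling after termination, had 14.6 and 16.5 in WT and 15.3 and 16.1 in KO, with a log2 fold change of 0.02, a standard error of 0.12 and an adjusted p of 0.983 in limma. In these 4 genes the highest pool was 1.10 to 1.13 times the lowest. The median of that ratio was 1.27 over 5080 tested genes averaging 10 FPKM or more, of which 15.4% were at or under 1.13. Of 7 other tested genes for ribosome recycling and initiation, 4 had a log2 fold change above 0 and 3 below, and none had an unadjusted p under 0.05.

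Summed over each subfamily, ABCC RNA varied most. It came to 109 and 89.1 FPKM in WT and 121 and 262 in KO, which is 23.4% and 23.3% of all ABC FPKM in the WT pools, 25.7% in KO pool 1 and 39.5% in KO pool 2. Abcc2 alone had 222 of the 262 FPKM in KO pool 2. The ABCG sum was 51.9 and 40.0 in WT and 62.9 and 74.0 in KO, nearly all of it Abcg2. The ABCD sum was 84.1 and 51.4 in WT and 82.9 and 99.3 in KO, with WT pool 2 low. The ABCA sum was 102 and 80.7 in WT and 92.4 and 102 in KO, the ABCB sum 41.1 and 38.5 in WT and 35.7 and 41.6 in KO, and the ABCF sum 63.2 and 66.9 in WT and 60.4 and 66.96 in KO. The groups overlapped in ABCA, ABCB, ABCD, ABCE and ABCF. Median log2 fold changes of the tested genes were 0.08 in ABCA, 0.03 in ABCB, 0.16 in ABCD and -0.03 in ABCF. ABCG had only 2 tested genes, Abcg2 at 0.60 and Abcg3 at -0.66, so no median is given.

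**Figure D4:**
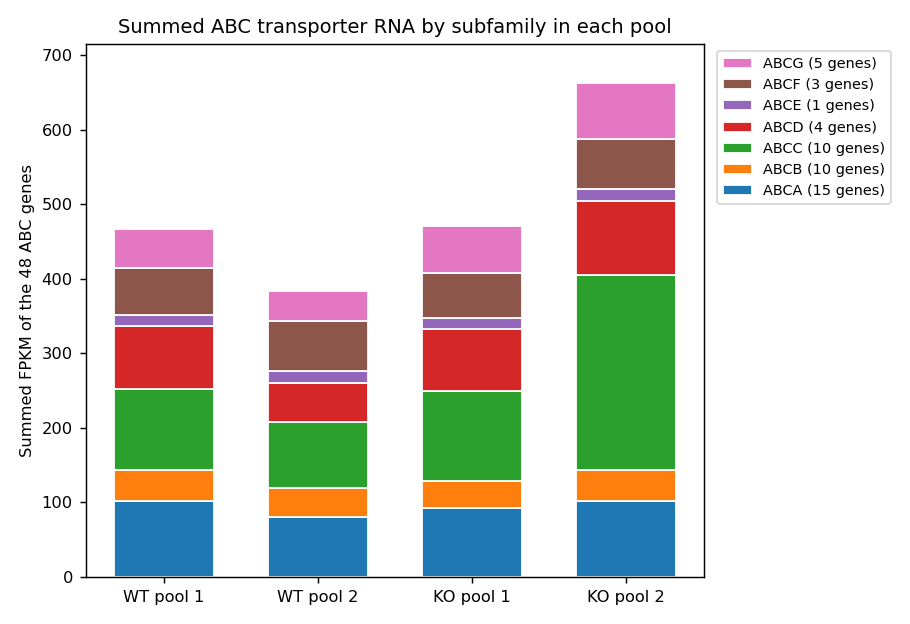
Summed FPKM of the 48 ABC genes in each pool (y axis), stacked by subfamily. The total was 467 and 383 in WT and 471 and 662 in KO, and the ABCC segment of KO pool 2 is the widest at 262 FPKM.

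The pools did not deviate alike for all members. WT pool 2 was the lowest pool for 11 of the 31 tested genes, among them Abcc2, Abcd3, Abca3 and Abcg2, and KO pool 2 was the highest for 13. The summed FPKM of 12 proximal tubule markers was 2774 and 2089 in WT and 1943 and 2468 in KO, lowest in KO pool 1. Without the most abundant of them, Slc34a1, the other 11 summed to 1876 and 1400 in WT and 1577 and 1859 in KO, lowest in WT pool 2. Of the 12, 6 were lowest in WT pool 2 and 6 in KO pool 1, and their part in the values of Abcc2, Abcd3, Abca3 and Abcg2 was not tested. Of these 12 markers, 4 had a log2 fold change above 0 and 8 below. The apical sodium-glucose carrier Slc5a2 (114 and 95.3 in WT, 56.9 and 77.1 in KO) and the endocytic receptor Lrp2 (99.9 and 91.0 in WT, 70.4 and 76.3 in KO) had an unadjusted p under 0.05 in the lower direction. The basolateral anion uptake carrier Slc22a6, which supplies the apical exporters with substrate, had 233 and 141 in WT and 236 and 383 in KO, with KO pool 2 high as for Abcc2. Of 8 such solute carriers, 4 were above 0 and 4 below. Of 6 scaffold proteins that hold apical transporters, 2 were above 0 and 4 below.

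Injured tubule markers summed to 8326 and 9407 FPKM in WT and 10529 and 8118 in KO. Spp1 made up most of each sum, with 7026 and 7789 in WT and 8961 and 6872 in KO. Of the 10 markers, 5 had a log2 fold change above 0 and 5 below. Lcn2 (133 and 95.2 in WT, 249 and 273 in KO) and Krt20 (35.6 and 36.8 in WT, 60.0 and 61.0 in KO) were higher and Vcam1 (14.6 and 31.0 in WT, 10.5 and 2.59 in KO) lower at an unadjusted p under 0.05. All 10 endothelial markers had a log2 fold change above 0, with sums of 209 and 244 in WT and 286 and 305 in KO. Sums of the mural list were 94.6 and 174 in WT and 125 and 200 in KO, those of the distal nephron and collecting duct list 1673 and 1154 in WT and 1716 and 1390 in KO, and those of the red blood cell list 128 and 126 in WT and 64.6 and 179 in KO. The adrenal list stayed between 1.24 and 1.55. The adipocyte list summed to 1.56 and 0.448 in WT and 8.27 and 3.19 in KO, so the sums were separate. Most of each sum was Cidec, at 7.92 and 2.79 in KO. Plin1 was also higher in both KO pools, while Cfd had 0.135 and 0.0630 in WT and 0 in both KO pools. Adipoq, Retn and Lep had overlapping groups. Cidec, the only tested gene of the list, had a log2 fold change of 2.12 and an adjusted p of 0.785 in limma. The part of any of these cell types in the values of Abcc3, Abca7, Abcg2 and Abcc4 was not tested.

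Of 12 transcription factors known to act on ABC genes, 10 were tested, 8 had a log2 fold change above 0 and 2 below, and Ppara and Nr1h3 had an unadjusted p under 0.05. The receptor for xenobiotics Nr1i2 (PXR) had 3.92 and 3.69 FPKM in WT and 6.86 and 4.17 in KO, with a log2 fold change of 0.45 and an adjusted p of 0.798 in limma. None of these factors passed the adjusted threshold.

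The 17 members under the filter were ABC genes of other organs and several low genes of this one. Abca4, the retinal transporter, came closest with 0.348 to 0.612 FPKM on 72 to 123 reads. Abca17 had 7 to 29 reads, Abca14 had 1 to 7, and Abcc8, the sulphonylurea receptor of the pancreatic beta cell, had 2 to 6. The genes Abcb5, Abcb11, Abcc12 and the skin lipid transporter Abca12 had at most 1 read in any pool. Abca15 and Abca16 had none, and with Abca14 they form a run on the plus strand of chromosome 7 from 120203961 to 120544813. In all, 7 members had 3 reads or fewer in every pool. This floor was a set value, and the level that these depths can tell from no RNA was not measured. Median GC content before the start was 53.8% in 12 members under the filter and 61.6% in 23 tested members.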

How the data were processed

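RNA was poly-A selected, the strand protocol is not stated, and the labels' processing notes name HISAT2 2.0.5, mm10 and GRCm38.p6. The counting tool is not given in the sources used here. The authors deposited FPKM per gene and library, whose totals were proportional to median-of-ratios size factors of the reads. FPKM times gene length gave whole reads within 0.01 for 100% of the nonzero values, and these reads served for depth and voom weights. Mitochondrial genes took 5.20% to 6.45% of reads.

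The test was limma 3.58.1 under R 4.3.3 on log2(FPKM + 0.5), KO minus WT (eBayes with trend, two-sided, no covariates), over the 15414 genes with a mean of at least 0.5 FPKM, with Benjamini-Hochberg adjustment. Fold changes on this scale understate those of low genes. Tables and figures used Python 3.11.15, numpy 2.4.6, pandas 2.3.3 and matplotlib 3.10.9. The replicates are separate pools of 3 mice, so p-values measure the spread between pools. The rule was to name every member with a mean of at least 0.5 FPKM with its 4 values. The standard error and adjusted p were given where the unadjusted p was under 0.05, where groups were separate with an absolute log2 fold change of at least 0.5, and for the 2 highest genes of each subfamily. Alternatives were pseudocounts of 0.1 and 1, no filter and a mean of at least 1 FPKM, quantile and median-of-ratios scaling, no trend, voom weights, the replicate number as a block, protein-coding genes only, and each pool left out. Of the 31 tested members, 29 are described singly; 2 are not reported here except within counts, medians and sums. The members, as a family, and the gene lists were chosen with earlier results of these data known. Gene positions matched GENCODE M21 exactly for 47 of 48 members. Promoters came from RefSeq, where 37 members matched and 35 had a start within 500 bases of the gene's 5' end. Shared 50-base windows were counted on the reference transcripts.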

Additional observations from a re-analysis of the deposited data

How the results depend on the processing

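No ABC gene had an adjusted p under 0.05 in limma under any alternative, and over these alternatives the adjusted p of the tested members ran from 0.351 to 1.00. Of 277 values of single members under pseudocounts, filters, quantile normalization, voom weights, no trend, only protein-coding genes and the replicate block, 275 kept their direction and 2 changed sign, Abca3 at -0.0047 and Abce1 at -0.012 under quantile normalization. Median-of-ratios scaling moved no member by more than 0.0069, since the deposited FPKM already carry such factors. The count of all genes with an adjusted p under 0.05 was 218 without the filter, all of them with at most 0.115 FPKM and 4 reads in any pool. The median log2 fold change of members was 0.023 over all 48 genes without the filter, since the 17 genes under it entered. Deviations of same-numbered pools had a correlation of -0.0017 across genes over 2 pairs. With only 2 pools a group, this value cannot tell whether same-numbered pools were matched. Over all genes, those with an unadjusted p under 0.05 numbered 932 of 15414 with the replicate block, against 974 in the main fit. They numbered 1825 of 54078 without the filter, 976 of 15414 with quantile normalization and 960 of 15414 with no trend. With the replicate block, 2 members (Abca7 and Abcc3) had an unadjusted p under 0.05, in place of 4. That count was 3 of 48 without the filter, where Abcg2 no longer met it. It was 3 with quantile normalization and with no trend, where Abcc4 no longer met it. With a pool left out, that count ran from 1 to 6 and the median from -0.00042 to 0.053. The count was 6 without WT pool 1 (Abcd3, Abcg2, Abca7 and Abcc3 higher in KO, Abca9 and Abcg3 lower), 2 without WT pool 2 (Abcc3 and Abcc4), 1 without KO pool 1 (Abcc2) and 1 without KO pool 2 (Abca7), where the lone pool was assumed to vary like the other group. Over all 15414 genes tested the count was 974 with all pools, 1720 without WT pool 1, 687 without WT pool 2, 727 without KO pool 1 and 779 without KO pool 2. The median was -0.00042 without KO pool 2. With each pool left out in turn, the log2 fold change changed sign in 20 members, 18 of which are given here. It ran from -0.065 to 0.10 for Abce1, -0.20 to 0.43 for Abcb1a, -0.12 to 0.28 for Abca3, -0.091 to 0.038 for Abcf1 and -0.12 to 0.053 for Abcf2. The range was -0.026 to 0.47 for Abcc10, -0.026 to 0.34 for Abcd4 and -0.044 to 0.50 for Abcb9. For the next it was -0.60 to 0.080 for Abca9, -0.30 to 0.00021 for Abcb8, -0.10 to 0.028 for Abcf3, -0.031 to 0.34 for Abca2 and -0.074 to 0.21 for Abca8a. For the last it was -0.61 to 0.12 for Abcc6, -0.19 to 0.22 for Abcc9, -0.11 to 0.19 for Abca8b, -0.012 to 0.32 for Abcc1 and -0.022 to 0.075 for Abcb1b. These changes came with fewer pools in the fit, and their cause was not tested further. The 7 members at the set floor of 3 reads or fewer in every pool were all under the filter.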
